A study of Mus musculus with 6 samples.

Results

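Transcripts of the DNA replication machinery and of deoxynucleotide synthesis were examined in activated CD4 T cells with and without the microRNA miR-155. The list named 42 genes, chosen by function but with earlier results of these data known. Its members were all probe sets whose platform annotation carries 1 of these symbols. Of the 42, 40 had a probe set, among 12394 genes on the array, and all 40 passed the filter on low values that left 9295 genes for testing. Gins2 and Chaf1a were not analysed here.

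The CD4+ T cells were prepared from lymph nodes and spleen of C57BL/6 mice, either miR-155 KO (3 arrays) or wild type (WT, 3 arrays), and per the series text each array came from its own mouse. Both genotypes were taken with CD4 magnetic beads and activated for 3 days with antibodies against CD3 and CD28 (1 µg/mL) plus 20 U/mL interleukin 2. Resting cells were not analysed here, so every level below is that of a stimulated culture, and the extent of the deletion in the KO allele and the cells that carry it are not stated in the labels. Bulk RNA was measured, so fewer dividing cells and less of a transcript per cell cannot be told apart.

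DNA replication starts at origins that are licensed before S phase. The origin recognition complex, with Cdc6 and Cdt1, loads a ring of the Mcm2 to Mcm7 proteins, and geminin blocks a further round of loading. The ring becomes an active helicase when Cdc45 and the GINS complex join it. Primase and DNA polymerase alpha then start the new strands, which polymerases epsilon and delta extend on the sliding clamp Pcna. Ribonucleotide reductase and thymidylate synthase supply the deoxynucleotides. Many of these genes are known targets of E2F transcription factors, and in T cells their transcripts are scarce at rest and induced as stimulated cells enter division.

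The sequences of the microRNA removed in KO mice, and of promoters that carry E2F words, are given first because the rest of the text compares cells with and without the former and genes often grouped by the latter. The main mature strand, mmu-miR-155-5p, lies at chr16:84714143-84714165 on the plus strand (RefSeq, build GRCm38.p6), and its seed, bases 2 to 8, is in capitals.
mmu-miR-155-5p: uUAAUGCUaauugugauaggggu

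Promoter windows of 300 bases, 250 before to 50 after an annotated start, were taken from a RefSeq table of build GRCm38.p6, which held 41 windows for 35 of the 42 members. They were searched on both strands for 4 words of the E2F consensus, TTTCCCGC, TTTCGCGC, TTTGCCGC and TTTGGCGC. At least 1 word was found in 13 of the 41 member windows (31.7%) and in 2.26% of all 32851 windows. Member windows were richer in G and C, with a median of 61.3% against 52.7% of all windows, and the part of base composition in the match was not tested. The pentamer CCAAT, on either strand, was in 58.5% of member windows and 37.4% of all, and the word TTTGAA in 9.76% and 17.9%. Words may overlap, as the E2F words of Mcm5 do. A match describes the letters and not a bound site. The windows below are the first 8 with an E2F word, among members given array by array, in order of their p for the genotype difference, 5′ to 3′ along the gene, with E2F words in capitals. Mcm7, Lig1 and Uhrf1 have further annotated starts whose windows held none.
Pold1 (chr7:44548766-44549065, minus strand): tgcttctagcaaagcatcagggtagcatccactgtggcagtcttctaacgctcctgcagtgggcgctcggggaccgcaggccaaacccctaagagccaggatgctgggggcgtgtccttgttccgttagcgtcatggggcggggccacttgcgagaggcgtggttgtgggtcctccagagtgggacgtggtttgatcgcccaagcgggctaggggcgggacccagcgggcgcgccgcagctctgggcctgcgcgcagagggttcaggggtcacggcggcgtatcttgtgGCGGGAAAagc
Lig1 (chr7:13278576-13278875, plus strand): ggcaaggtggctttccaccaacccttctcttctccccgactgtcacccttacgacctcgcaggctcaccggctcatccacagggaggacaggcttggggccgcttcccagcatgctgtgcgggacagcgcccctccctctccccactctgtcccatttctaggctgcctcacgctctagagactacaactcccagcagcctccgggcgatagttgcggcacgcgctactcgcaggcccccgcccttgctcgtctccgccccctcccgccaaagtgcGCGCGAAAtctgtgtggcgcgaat
Orc1 (chr4:108579204-108579503, plus strand): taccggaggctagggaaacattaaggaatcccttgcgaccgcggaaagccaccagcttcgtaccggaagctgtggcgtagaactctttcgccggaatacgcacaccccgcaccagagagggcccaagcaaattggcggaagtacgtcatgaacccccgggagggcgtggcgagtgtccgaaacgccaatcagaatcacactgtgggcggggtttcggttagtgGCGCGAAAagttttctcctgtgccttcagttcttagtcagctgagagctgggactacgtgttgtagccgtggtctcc
Pole2 (chr12:69228141-69228440, minus strand): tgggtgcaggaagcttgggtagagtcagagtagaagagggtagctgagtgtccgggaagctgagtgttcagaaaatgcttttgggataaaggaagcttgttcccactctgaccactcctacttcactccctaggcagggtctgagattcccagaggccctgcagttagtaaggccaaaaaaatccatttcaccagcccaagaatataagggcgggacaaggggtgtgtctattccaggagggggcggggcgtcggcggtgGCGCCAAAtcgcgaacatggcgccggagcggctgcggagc
Mcm5 (chr8:75109259-75109558, plus strand): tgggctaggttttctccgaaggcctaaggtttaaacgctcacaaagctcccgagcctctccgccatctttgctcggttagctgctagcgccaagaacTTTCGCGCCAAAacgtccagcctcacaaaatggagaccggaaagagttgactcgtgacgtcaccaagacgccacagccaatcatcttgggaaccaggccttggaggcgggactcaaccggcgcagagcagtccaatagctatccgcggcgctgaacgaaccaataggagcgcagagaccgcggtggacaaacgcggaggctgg
Mcm3 (chr1:20820263-20820562, minus strand): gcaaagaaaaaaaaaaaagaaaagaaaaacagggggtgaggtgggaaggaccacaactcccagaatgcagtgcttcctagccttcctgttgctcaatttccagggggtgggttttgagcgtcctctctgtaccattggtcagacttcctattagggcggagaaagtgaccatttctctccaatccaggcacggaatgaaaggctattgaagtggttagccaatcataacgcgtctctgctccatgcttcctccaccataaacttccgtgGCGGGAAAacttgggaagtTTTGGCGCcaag
Mcm7 (chr5:138171834-138172133, minus strand): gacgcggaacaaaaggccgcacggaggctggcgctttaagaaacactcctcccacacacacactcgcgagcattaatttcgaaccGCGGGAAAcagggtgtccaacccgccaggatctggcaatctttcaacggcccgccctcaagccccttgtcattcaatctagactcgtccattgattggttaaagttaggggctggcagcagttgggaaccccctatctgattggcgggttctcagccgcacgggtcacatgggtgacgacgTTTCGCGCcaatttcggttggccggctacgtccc
Uhrf1 (chr17:56304063-56304362, plus strand): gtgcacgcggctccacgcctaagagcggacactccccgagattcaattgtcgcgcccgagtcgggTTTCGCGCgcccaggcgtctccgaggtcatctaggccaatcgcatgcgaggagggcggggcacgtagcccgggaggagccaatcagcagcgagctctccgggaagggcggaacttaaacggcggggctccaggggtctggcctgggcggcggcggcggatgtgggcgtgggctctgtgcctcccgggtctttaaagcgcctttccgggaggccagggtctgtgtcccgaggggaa

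Mcm3, Mcm5 and Mcm7 held 2 E2F words each in these windows and the other 5 genes held 1. Cdt1 with 1 word and Rfc3 with 2 also carried them, and they were among the 3 members with the smallest shift (given below).

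Before the members, the arrays were checked against their labels. Mir155hg, the host transcript of the microRNA, lay between 3.51 and 4.45 on the KO arrays and between 6.59 and 8.21 on the WT arrays (RMA log2 level). Cd3e (9.86 to 10.88) and Cd4 (8.83 to 9.25) were well above 4.72, the mean of the dimmest gene tested, on all 6 arrays. Of 13 macrophage and monocyte markers 8 lay below 4.72 on all arrays, and the list's mean level was 4.69 to 4.86 in KO and 4.53 to 4.73 in WT. The 10 measured CD4 T cell markers averaged 11.23 to 11.45 in KO and 10.86 to 11.31 in WT. Of these markers 8 were higher in KO (4576 of all 9295 genes), with a median KO minus WT of 0.21. At an unadjusted limma p under 0.05, 2 were higher (3.57% of all genes). The 9 measured B cell markers averaged 5.84 to 6.27 in KO and 5.74 to 6.51 in WT. The 6 NK cell markers averaged 4.59 to 4.68 and 4.48 to 4.85, the 6 dendritic cell markers 5.33 to 5.47 and 5.24 to 5.53, the 8 erythroid and platelet markers 5.38 to 5.56 and 5.39 to 5.45, and the 5 CD8 T cell markers 6.66 to 6.81 and 6.62 to 6.93, so the ranges of each list overlapped between genotypes. Same-numbered arrays had alike sex-linked levels. Xist was at 13.35 in KO and 13.08 in WT on the replicate 1 arrays, with the Y-linked Eif2s3y at 3.50 and 3.44, and at 5.94 and 5.66 on the replicate 2 arrays, with Eif2s3y at 10.41 and 10.51. Both replicate 3 arrays showed Xist (12.59 in KO and 12.64 in WT) together with Eif2s3y (10.05 and 10.21), so that 1 mouse per array is uncertain there, and results without them are given. KO replicate 1 stood apart from the other 5 arrays on the first principal component, at -41.3 against -14.6 to 26.1, and it held the lowest value of the 6 arrays in 30.2% of all genes tested and the highest in 25.8%.

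Replication transcripts were lower in KO almost throughout, by a moderate amount. Of the 40 members 39 had a KO mean below the WT mean, where 50.8% of all genes did. The median difference, KO minus WT, was -0.66 on the log2 scale, or 1.58-fold lower, against -0.0035 over all 9295 genes. The middle of the members was narrow, with quartiles of -0.72 and -0.56, and 31 of 40 were lower by at least 0.5, which 5.91% of all genes were. No member passed limma's test over all genes (adjusted p under 0.05), and neither did any of the 9295 genes (0%), the smallest adjusted p being 0.545 over all genes and 0.631 among the members. At an unadjusted limma p under 0.05 the fit gave 691 genes in all. Of the members 22 were below that p and lower in KO, against 3.86% of all genes, and 0 were higher, against 3.57%. With estimated array weights the same test called 3581 genes, with weights of 5.55 for KO replicate 3 and 5.05 for WT replicate 2 and 0.273 to 0.578 for the other 4 arrays.

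**Figure D1:**
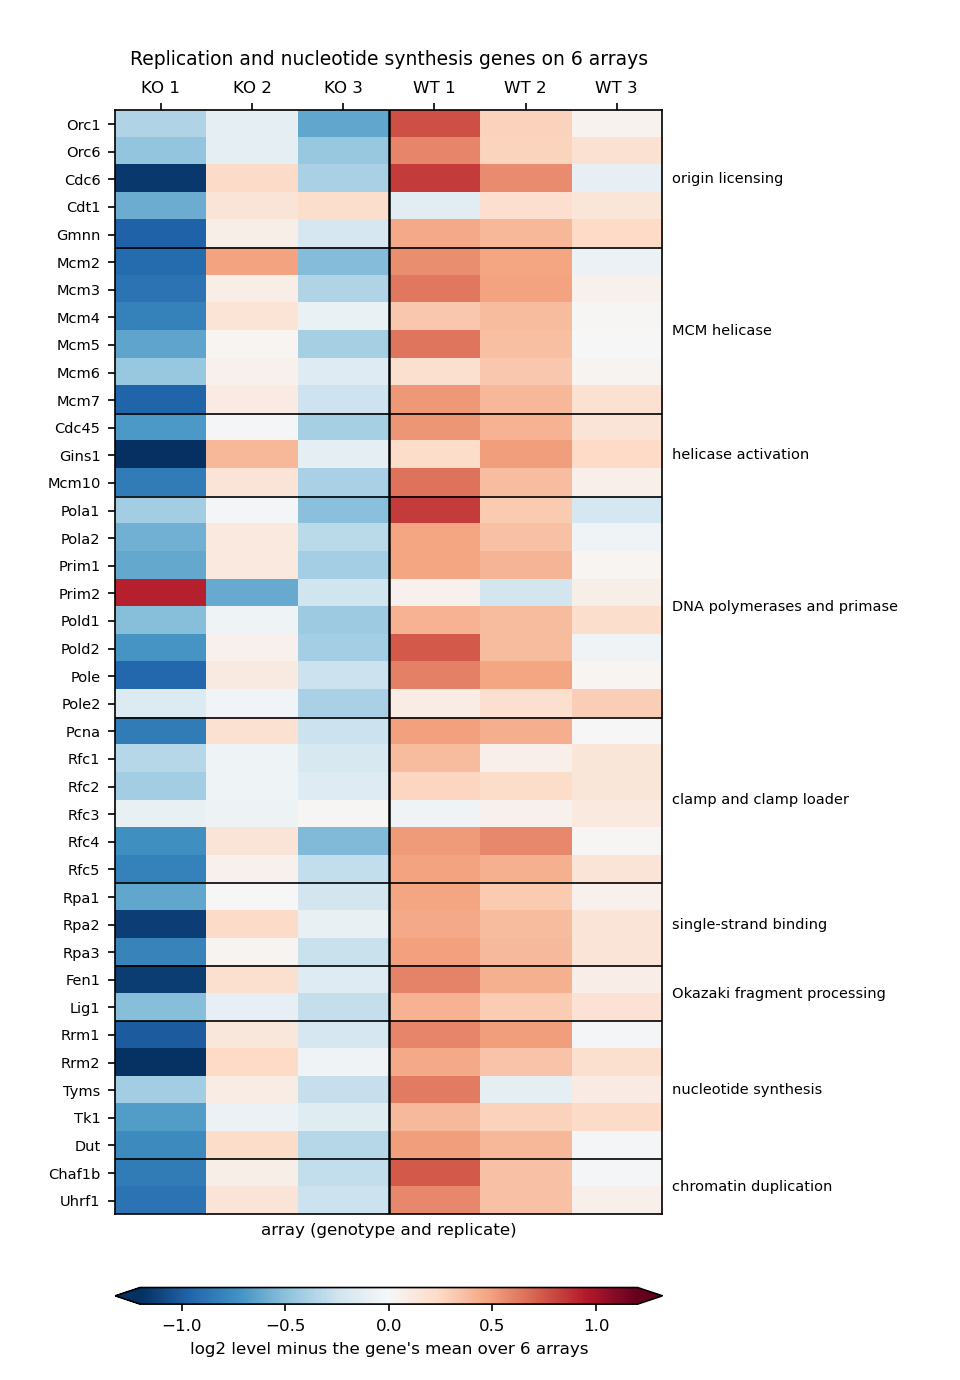
Heat map of the 40 measured members (rows, by role) on the 6 arrays (columns; KO left of the black line, WT right). Colour is the log2 level minus the gene's mean over 6 arrays, with values beyond 1.2 at the end colours. KO replicate 1 is the lowest array in 36 rows and WT replicate 1 the highest in 32, while Prim2 runs the other way on KO replicate 1.

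The members shared an order of arrays, although the list was chosen with earlier results of these data known. In part this order restates the lower KO means. KO replicate 1 was the lowest array in 36 of 40 members and WT replicate 1 the highest in 32 (23.4% of all genes). The median deviation from each gene's mean over the 6 arrays was -0.72, 0.079 and -0.28 on KO replicates 1, 2 and 3 and 0.49, 0.37 and 0.071 on WT replicates 1, 2 and 3. KO replicate 3 lay below all WT arrays in 38 members (30.1% of all genes) and KO replicate 2 in 16 (22.2%). WT replicate 3 was the lowest WT array in 33 members (37.0% of all genes), and KO replicate 2 exceeded it in 23 (47.5% of all genes), a share near that of all genes. By the median deviation KO replicates 1 and 3 lay lowest and WT replicates 1 and 2 highest, with KO replicate 2 and WT replicate 3 between them.

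All KO arrays lay below all WT arrays in 14 members, against 6.92% of all genes: Orc1, Orc6, Gmnn, Mcm7, Cdc45, Pold1, Pole2, Rfc1, Rfc2, Rfc5, Rpa1, Rpa3, Lig1 and Tk1. For each of these the exact two-sided permutation test gave 0.1, the smallest p that 3 against 3 arrays allow. That value follows from the groups being apart and adds nothing to it. The other 8 members with a limma p under 0.05 (unadjusted) had overlapping groups. Between arrays of the same number, which had alike sex-linked levels, KO lay below WT in all 3 numbers in 36 members and in 24.6% of all genes. Without KO replicate 2 the groups were apart in 37 members (19.6% of all genes) and without WT replicate 3 in 34 (20.9%).

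KO replicate 1 set much of the size of the difference and little of its direction. Without it 39 of 40 members were lower in KO (Prim2 then included and Cdt1 not), with a median of -0.41, or 1.33-fold, against -0.012 over all genes. Then 10 members were lower by at least 0.5 (2.9% of all genes), 12 had an unadjusted limma p under 0.05 (2.64% of all genes), and the 2 KO arrays lay below the 3 WT arrays in 15 (11.4%). The 12 had all been among the 22. The count at unadjusted p rested on other arrays too: it was 36 without KO replicate 2 (9.33% of all genes), 9 without KO replicate 3 (1.65%), 7 without WT replicate 1 (1.39%) and 7 without WT replicate 2 (1.42%). With both replicate 3 arrays left out it was 10 (2.19%), with a median of -0.79 and groups apart in 35 members (24.1% of all genes).

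**Figure D2:**
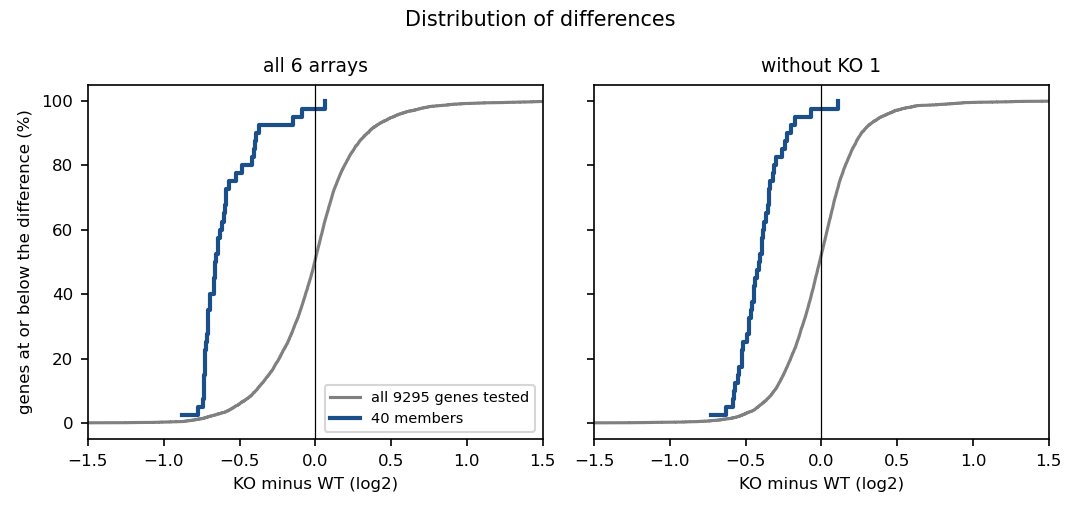
Cumulative share of genes (percent) at or below each KO minus WT difference (log2), for the 40 members (blue) and all 9295 genes tested (grey), with all 6 arrays on the left and without KO replicate 1 on the right. Genes beyond the ends of the axis are not drawn. The members' curve lies to the left of that of all genes in both panels, with medians of -0.66 and -0.41.

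Among the licensing factors, the median difference of 5 genes was -0.73. Orc1, the largest subunit of the origin recognition complex, measured 6.90, 7.16 and 6.64 on KO replicates 1 to 3 and 8.04, 7.54 and 7.31 on WT replicates 1 to 3. The groups did not overlap, and the difference of -0.73 ± 0.23 (SE, n = 3 and 3) was the same without KO replicate 1. Orc6, the smallest subunit, measured 8.65, 9.01 and 8.67 in KO and 9.71, 9.39 and 9.31 in WT. Its difference of -0.69 ± 0.17 (SE) was -0.63 without KO replicate 1, so neither of these genes rested on that array. Without WT replicate 1, the highest array in both, the differences were smaller, at -0.52 for Orc1 and -0.57 for Orc6.

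Gmnn encodes geminin, the inhibitor of Cdt1. It measured 9.54, 10.58 and 10.31 in KO and 10.96, 10.91 and 10.75 in WT, groups apart, with a difference of -0.73 ± 0.27 (SE) that was -0.43 without KO replicate 1. Cdt1, the loader that geminin restrains, measured 10.63, 11.38 and 11.44 in KO and 11.10, 11.43 and 11.37 in WT. KO replicate 1 was its lowest array and the groups overlapped. The difference of -0.15 ± 0.24 (SE) was 0.11 without that array (0.0098 with array weights). Of its weaker probe sets 1 differed by -0.22 and 1, near background at a mean level of 2.98, by -0.19. The loading ATPase gene Cdc6 had the lowest KO minus WT of all members, -0.88 ± 0.39 (SE), with overlapping groups and a wide range within KO, from 7.95 to 9.34, and it differed by -0.52 without KO replicate 1.

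The 6 genes of the MCM ring were all lower in KO, with a median of -0.66 (-0.39 without KO replicate 1). Mcm5 measured 9.35, 10.01 and 9.59 in KO and 10.63, 10.35 and 9.98 in WT, a difference of -0.67 ± 0.23 (SE). Mcm3 measured 9.82, 10.79 and 10.35 in KO and 11.34, 11.19 and 10.76 in WT, a difference of -0.78 ± 0.28 (SE). In both genes KO replicate 2 reached just above WT replicate 3, and the differences were -0.52 and -0.52 without KO replicate 1. Mcm7 measured 11.09, 12.15 and 11.80 in KO and 12.57, 12.45 and 12.23 in WT, with groups apart and a difference of -0.73 ± 0.27 (SE; -0.44 without KO replicate 1). The other 3 ring genes had smaller differences and overlapping groups: Mcm2 -0.64 ± 0.37, Mcm4 -0.48 ± 0.26 and Mcm6 -0.37 ± 0.16 (SE), which were -0.34, -0.20 and -0.24 without KO replicate 1. The 5 probe sets of Mcm3 ranged from -0.82 to -0.40 and the 4 of Mcm7 from -0.87 to -0.68.

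A further 3 genes act in turning the ring into a helicase. Cdc45, a constant part of the active helicase, measured 7.67, 8.35 and 7.96 in KO and 8.89, 8.78 and 8.52 in WT. The groups were apart, with a difference of -0.74 ± 0.20 (SE; -0.58 without KO replicate 1). Mcm10, a firing factor outside the ring despite its name, measured 7.51, 8.51 and 7.96 in KO and 9.0, 8.72 and 8.41 in WT. It differed by -0.71 ± 0.28 (SE), KO replicate 2 lying above WT replicate 3, and by -0.48 without KO replicate 1. Gins1, a GINS subunit, was low on KO replicate 1 (8.33) but at 9.99 and 9.48 on the other KO arrays, against 9.81 to 10.09 in WT. Its difference went from -0.64 to -0.18 without that array.

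Of the 8 polymerase and primase genes 7 were lower in KO. Pold1, the catalytic subunit of polymerase delta, measured 9.24, 9.70 and 9.32 in KO and 10.17, 10.13 and 9.96 in WT. With -0.67 ± 0.16 (SE) it had the smallest p of all members (limma adjusted p = 0.631), groups apart, and -0.58 without KO replicate 1. A second probe set of the gene differed by -0.64. Pold2, the accessory subunit of the same enzyme, measured 8.43, 9.19 and 8.73 in KO and 9.88, 9.52 and 9.10 in WT, which overlap, for a difference of -0.72 ± 0.27 (SE; -0.54 without KO replicate 1).

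For polymerase epsilon, the catalytic gene Pole measured 7.97, 9.02 and 8.66 in KO and 9.52, 9.39 and 8.94 in WT. It differed by -0.74 ± 0.29 (SE) with overlapping groups, and by -0.45 without KO replicate 1. Its partner Pole2 measured 9.60, 9.73 and 9.38 in KO and 9.86, 9.97 and 10.06 in WT, with groups apart. Pole2 did not follow the common order of arrays: KO replicate 3 was lowest, WT replicate 3 highest, and the difference of -0.40 ± 0.13 (SE) was -0.41 without KO replicate 1. It was -0.26 with both replicate 3 arrays left out.

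The 2 primase subunits behaved differently. Prim1, the catalytic subunit that lays down RNA primers, measured 9.62, 10.36 and 9.83 in KO and 10.71, 10.65 and 10.26 in WT, a difference of -0.60 ± 0.23 (SE; -0.45 without KO replicate 1). Prim2, the large subunit, measured 10.39, 8.85 and 9.22 in KO and 9.51, 9.24 and 9.53 in WT. KO replicate 1 was the highest array in Prim2 and the lowest in most other members. The Prim2 difference was 0.062 ± 0.38 (SE) with all arrays, -0.39 without KO replicate 1 and -0.033 without WT replicate 2. A second Prim2 probe set showed the same order of KO arrays, with 9.96 on KO replicate 1 against 8.54 and 8.51, and a difference of 0.068. Pola1 and Pola2, which form the polymerase alpha part of the same complex, differed by -0.63 ± 0.28 and -0.53 ± 0.22 (SE) with overlapping groups, and by -0.57 and -0.37 without KO replicate 1.

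The clamp and its loader, the replication factor C complex, had a median of -0.52 over 6 genes. Pcna was at 12.38, 13.40 and 12.96 in KO and 13.71, 13.66 and 13.22 in WT, which overlap, a difference of -0.62 ± 0.28 (SE; -0.35 without KO replicate 1). Rfc5 measured 8.90, 9.76 and 9.41 in KO and 10.19, 10.14 and 9.86 in WT, with groups apart, a difference of -0.71 ± 0.23 (SE) and -0.47 without KO replicate 1. Rfc4 measured 8.88, 9.77 and 9.09 in KO and 10.13, 10.19 and 9.63 in WT, overlapping, at -0.73 ± 0.27 (SE; -0.55 without KO replicate 1). These 2 small subunits had the larger differences of the complex.

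Rfc2, another small subunit, measured 9.53, 9.89 and 9.79 in KO and 10.20, 10.17 and 10.09 in WT, a difference of -0.42 ± 0.13 (SE). Rfc1, the large subunit, measured 9.07, 9.36 and 9.22 in KO and 9.79, 9.47 and 9.56 in WT, a difference of -0.39 ± 0.14 (SE), and its 2 weaker probe sets differed by -0.30 and -0.56. Both had groups apart, and both were lower without KO replicate 1 as well, by -0.31 and -0.32. Rfc3 was nearly level, at 9.52, 9.55 and 9.62 in KO and 9.57, 9.66 and 9.73 in WT. Its difference was -0.089 ± 0.11 (SE), a second probe set gave -0.09, and its range over the 6 arrays, 0.21, was the smallest of the members.

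Replication protein A, the trimer that coats single-stranded DNA, had all 3 subunits lower in KO. Rpa1 measured 10.89, 11.52 and 11.30 in KO and 11.99, 11.83 and 11.57 in WT, a difference of -0.57 ± 0.20 (SE; -0.39 without KO replicate 1). Rpa3 measured 9.01, 9.85 and 9.55 in KO and 10.31, 10.20 and 9.97 in WT, a difference of -0.69 ± 0.23 (SE; -0.46 without KO replicate 1). Both had groups apart. Rpa2 overlapped, at -0.66 ± 0.34 (SE), and was -0.26 without KO replicate 1, where it was at 8.36 against 9.40 to 9.94 on the other arrays.

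Of the enzymes that finish lagging strands, Lig1, the ligase that seals the nicks, measured 9.83, 10.24 and 10.05 in KO and 10.75, 10.64 and 10.51 in WT. The groups were apart, with a difference of -0.59 ± 0.15 (SE; -0.49 without KO replicate 1). Fen1, the flap endonuclease, measured 9.27, 10.60 and 10.25 in KO and 11.0, 10.83 and 10.48 in WT, overlapping. Its difference of -0.73 ± 0.35 (SE) was -0.35 without KO replicate 1, so the 2 enzymes differed in how far they rested on that array.

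Nucleotide synthesis genes were lower by a median of -0.59 (5 genes). Tk1, thymidine kinase of the salvage route, measured 8.95, 9.55 and 9.48 in KO and 10.01, 9.90 and 9.85 in WT, with groups apart, a difference of -0.59 ± 0.18 (SE) and -0.40 without KO replicate 1. Rrm1, the large subunit of ribonucleotide reductase, measured 9.65, 10.79 and 10.45 in KO and 11.24, 11.15 and 10.63 in WT, overlapping, at -0.71 ± 0.32 (SE; -0.39 without KO replicate 1). Rrm2, the small subunit, differed by -0.65 ± 0.36 (SE) and by -0.23 without KO replicate 1, which was at 10.16 against 11.30 to 11.80 on the other arrays. Dut, which breaks down dUTP, differed by -0.59 ± 0.27 (SE), with overlapping groups. Tyms, thymidylate synthase, had a dim probe set (5.60 to 6.64) and differed by -0.41 ± 0.23 (SE), and its 2 weaker probe sets, below 4.72 on every array, by -0.12 and -0.016.

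The chromatin genes of the list act behind the fork. Chaf1b, a subunit of chromatin assembly factor 1, measured 7.13, 8.04 and 7.68 in KO and 8.71, 8.32 and 7.95 in WT, a difference of -0.71 ± 0.28 (SE; -0.46 without KO replicate 1). Uhrf1, which helps Dnmt1 carry DNA methylation over to the new strand, measured 9.81, 10.85 and 10.44 in KO and 11.27, 11.05 and 10.76 in WT, a difference of -0.66 ± 0.28 (SE; -0.38 without KO replicate 1). In both, KO replicate 2 lay above WT replicate 3.

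**Figure D3:**
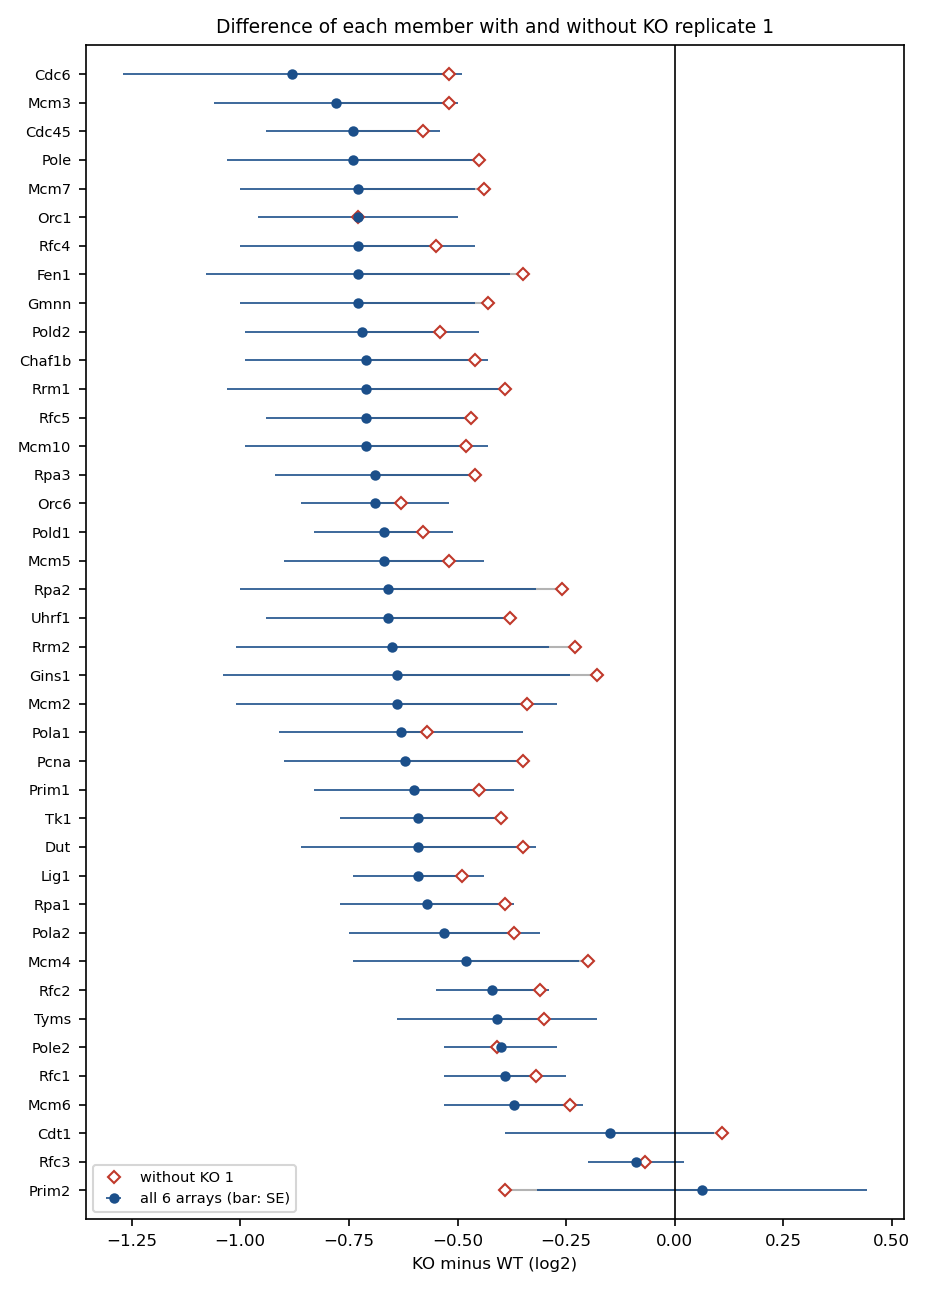
KO minus WT difference (log2) of each of the 40 members, with all 6 arrays (filled, with SE bars) and without KO replicate 1 (open), joined by grey lines. Most open points lie to the right of the filled ones and left of 0. Orc1 and Pole2 hardly move, Cdt1 crosses 0, and Prim2 moves the other way.

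Leaving out KO replicate 1 divided the members by how far the difference shrank. In 20 of the 39 lower members it stayed within 1.5 times of its value, among them Orc1, Orc6, Cdc45, Pold1, Pole2, Lig1 and Tk1. In the other 19 it shrank by more, and in 6 of these (Cdt1, Mcm4, Gins1, Rpa2, Fen1 and Rrm2) by over 2 times or past 0. The members had 71 probe sets in all, of which 69 were lower in KO, with a median of -0.64. Of the 31 weaker probe sets 30 were lower (median -0.59), and in none of the 22 genes with several did the sign differ between probe sets.

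Other genes of the same processes were taken from a separate list of 77, of which 59 were tested. Of these 52 were lower and 7 higher in KO, with a median of -0.44 (-0.26 without KO replicate 1). No gene passed the adjusted test, 9 were lower and 0 higher at an unadjusted limma p under 0.05, and the groups were apart and lower in 9. These pooled shares lay above the 3.86% and 6.92% of all genes but below those of the members. The nucleotide metabolism genes among them, given below, lay near the shares of all genes.

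Among 21 further replication factors 19 were lower. Timeless and Tipin, partners in the complex that protects the fork, differed by -0.51 ± 0.15 and -0.81 ± 0.32 (SE). Gins4, a GINS subunit, differed by -0.48 ± 0.16 and the helicase gene Recql4 by -0.65 ± 0.24 (SE). Timeless, Gins4 and Recql4 had groups apart, while those of Tipin overlapped. Without KO replicate 1 the differences were -0.44, -0.51, -0.33 and -0.60 in the order Timeless, Tipin, Gins4 and Recql4.

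Among 28 further genes of nucleotide metabolism 23 were lower, where 50.8% of all genes were. Lower at an unadjusted limma p under 0.05 was 1 gene, against 3.86% of all genes. The groups were apart and lower in 2, against 6.92%, and apart and higher in 1, so these counts were near the shares of all genes. The gene at that p was Cad, which starts pyrimidine synthesis, at -0.82 ± 0.33 (SE; -0.59 without KO replicate 1). Prps1, which makes the phosphoribosyl donor for nucleotide synthesis, differed by -0.85 ± 0.40, and Dctpp1, a dCTP pyrophosphatase, by -0.60 ± 0.28 (SE), both with overlapping groups. Ctps2, a CTP synthase, was on the higher side, at 0.43 ± 0.21 (SE), also with overlap. All 10 further chromatin genes were lower. The histone chaperone gene Asf1a had groups apart, at -0.79 ± 0.22 (SE; -0.61 without KO replicate 1). Hells, a chromatin remodeller, differed by -0.57 ± 0.23, the histone chaperone Nasp by -0.86 ± 0.38 and Dnmt1, the maintenance DNA methyltransferase, by -0.43 ± 0.21 (SE), all 3 with overlap.

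Mitosis genes were also lower in KO, and their order of arrays was another. All 36 tested had a lower KO mean, with a median of -0.53 beside -0.66 for the members, and of -0.21 beside -0.41 without KO replicate 1. Their median deviation was -0.93, 0.0039 and 0.078 on KO replicates 1 to 3 and 0.24, 0.23 and 0.41 on WT replicates 1 to 3. WT replicate 3 was the highest array in 24 of 36 mitosis genes and in 2 of 40 members, against 12.6% of all genes. KO replicate 2 exceeded WT replicate 3 in 1 mitosis gene, in 23 members and in 47.5% of all genes, so that here the mitosis genes and not the members lay far from the share of all genes. The groups were apart and lower in 20 of the 36 mitosis genes and in 14 of 40 members, against 6.92% of all genes. The share was thus larger in the mitosis genes than in the members. The difference between both lists was not tested.

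The 28 tested genes of Myc and ribosome biogenesis had a median of -0.48 (-0.24 without KO replicate 1). Their groups were apart and lower in 1, against 6.92% of all genes. Their median deviations were -0.72, 0.37 and -0.37 for KO replicates 1 to 3 and 0.72, 0.36 and -0.38 for WT replicates 1 to 3, with KO replicate 2 above and WT replicate 3 below 0. HIF response genes moved with KO replicate 1: their median deviation was 0.81 there and -0.29 to 0.021 on the other 5 arrays. Of 16 tested, 14 were highest on KO replicate 1, against 25.8% of all genes. The mean level of that list was 9.99 to 11.35 in KO and 10.22 to 10.33 in WT. Heat shock genes deviated by -0.14 on KO replicate 1 and by -0.20 to 0.15 on the others. Their part in the lower replication transcripts of that array was not tested, and the members' median without it is -0.41.

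**Figure D4:**
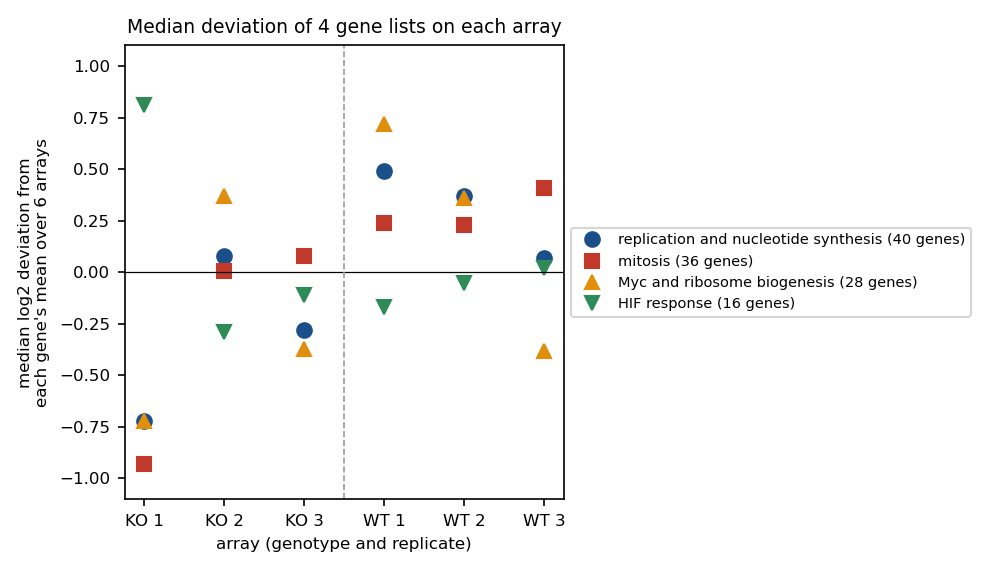
Median log2 deviation from each gene's mean over 6 arrays (vertical axis) on each array (horizontal axis) for the members, mitosis, Myc and ribosome biogenesis, and HIF response genes. On KO replicate 1 the HIF list is at 0.81 and the other lists between -0.93 and -0.72. On WT replicate 3 mitosis genes are at 0.41 and ribosome biogenesis genes at -0.38, with the members at 0.071.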

How the data were processed

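RNA of 6 cultures was hybridised to an Affymetrix array. The deposited values are log2 levels. Per the submitters' processing notes the authors used RMA through affy, with versions not given in the sources used here. This method brings arrays to a common distribution and compresses differences near background. Array medians lay between 6.45 and 6.49, no detection calls were used, and precision is limited by the small number of arrays.

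Of 22690 probe sets 20393 had 1 gene symbol in GEO's platform annotation, 691 had several and 1606 had none. The probe set with the highest mean stood for a gene. Genes in the lowest 25% by mean (3099) were not tested. The genotype difference came from limma 3.58.1 (R 4.3.3; lmFit, eBayes, two-sided, Benjamini-Hochberg adjustment over 9295 genes). All 40 member symbols matched the RefSeq table of GRCm38.p6 by gene number. Lists are described by counts and medians without a test.

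Values on every array are given for members with an unadjusted p under 0.05, the 2 with the smallest p in each role and the 3 with the highest KO minus WT. For Cdc6, Pcna, and some values of other members, they were added after the values were seen. Of each related list the 4 genes with the smallest p were named. The members and lists were chosen with earlier results of these data known. Results were recomputed with a replicate block, without each array in turn, with median centring, a further quantile normalization, other filters (none, 50%), the mean of probe sets, trend and robust eBayes, and array weights (statmod 1.5.0). Leaving out both replicate 3 arrays was added after seeing the data. The code was tested on simulated data.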

Additional observations from a re-analysis of the deposited data

How the results depend on the processing

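The median difference of the members stayed between -0.86 and -0.41, and that of the related genes between -0.59 and -0.26, under all 15 alternatives. The count of genes with a limma adjusted p under 0.05 was 0 as reported and under 14 alternatives, and 3581 with array weights. With these weights 36 of 40 members were lower at an unadjusted limma p under 0.05 (26.4% of all genes). Lower and past the adjusted test were 35 of 40 (20.6% of all genes). That fit rested mostly on KO replicate 3 and WT replicate 2 (weights 5.55 and 5.05, the others 0.273 to 0.578). Its counts therefore say little about the spread between arrays of a genotype. The number of members with an unadjusted limma p under 0.05 and lower in KO was 22 (3.86% of all genes). It was 7 to 36 with 1 array left out (1.39% to 9.33%). The number with groups apart and lower was 14 (6.92% of all genes), and 15 to 37 with 1 array left out (9.1% to 20.9%). Leaving out an array cannot lower this second count, so its rise does not measure stability. With replicates 1 and 2 alone these counts were 10 (2.19% of all genes) and 35 (24.1%). Signs turned in Cdt1 (0.11 without KO replicate 1, 0.0098 with array weights, and -0.29 to 0.11 with 1 array left out) and in Prim2 (-0.39 without KO replicate 1, -0.033 without WT replicate 2, -0.042 with array weights, and -0.39 to 0.38 with 1 array left out), and in no other of the 28 members named by the rule for array values. The cause was not tested.

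With the replicate number as a block the members' median was -0.66 and 18 members were lower at an unadjusted p under 0.05 (5.1% of all genes), against 22 without the block (3.86%), with 0 genes past the adjusted test in both. The deviations of same-numbered arrays correlated at -0.042, 0.638 and 0.404 over 9295 genes, below 0.1 in 1 pair. Those of KO and WT arrays with different numbers correlated at -0.688 to 0.395. Same-numbered arrays had alike Xist and Eif2s3y levels, but the labels name no shared litter, batch or day. Whether they were prepared together is thus not stated, and the main fit did not pair them. With 3 arrays a genotype, the standard errors of the members' differences ran from 0.11 to 0.4, and values near 4.72 may understate a difference.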

Other observations

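Regulators of the step before S phase had a smaller median difference than the replication genes. Of 23 tested G1 cyclin, CDK inhibitor and E2F genes 15 were lower in KO (50.8% of all genes), with a median of -0.18 (-0.12 without KO replicate 1). Their differences ran from -0.82 to 0.42, so the median does not give the size of single shifts. In this list 0 genes had an unadjusted limma p under 0.05 (0 adjusted), against 3.86% of all genes lower and 3.57% higher. Of 16 p53 target genes 12 were higher, as were 4576 of all 9295 genes, with a median of 0.13 (0.17 without KO replicate 1). At an unadjusted limma p under 0.05, 1 was higher, against 3.57% of all genes. Of 11 genes of naive and resting T cells 8 were higher, with a median of 0.24 (0.17 without KO replicate 1). Higher at an unadjusted limma p under 0.05 were 3 (3.57% of all genes), and 1 without KO replicate 1 (213 of 9295 genes). No gene of these lists passed the adjusted test, and the differences between lists were not tested. WT replicate 1, the highest array in most replication genes, was the lowest in 7 of the 11 naive and resting T cell genes (22.8% of all genes). It was also the lowest in 7 of the 10 CD4 T cell markers, so this was not particular to naive and resting genes. The median deviations there were -0.34 and -0.43.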
